A study of Rattus norvegicus with 6 samples.

Results

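Nucleic acid sensors and Toll-like receptors are the proteins by which cells recognise microbial and misplaced nucleic acids and cell wall products, and 10 of their genes were chosen by name: Zbp1, Dhx58, Ifih1, Tlr2, Tlr3, Tlr4, Tlr7, Cd14, Ly86 and Myd88. A gene was counted as measured where the array's annotation paired a probe set with that gene alone, which held for 9 of the 10 genes among 14217 genes on the array. No such probe set was named for Tlr3, and it has no value here. The 9 genes were measured by 11 probe sets, and where a gene had several, the brightest of them on average over the 6 arrays stood for it.

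Dissociated spinal cord cultures from rats of postnatal day 1 to 4 were grown on coverslips covered with multiwalled carbon nanotubes (CNT cultures) or coated with polyornithine (control cultures). RNA was taken at day 8 in vitro from 3 CNT and 3 control cultures, and 100 ng of each was amplified and hybridised to its own Affymetrix rat genome expression array. The labels give the strain as Sprague-Dawley and the paper's methods as Wistar, for both groups, and both groups received nerve growth factor. All values are log2 expression from RMA, a method that summarises the probes of a probe set on a common scale, so a difference of 1 is a doubling. A log2 fold change is the CNT mean minus the control mean on this scale, from limma over all 14217 genes with Benjamini-Hochberg adjustment. The cultures are mixed and the RNA is bulk, so that a different number of cells of a type and a different amount of RNA per cell cannot be told apart.

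In the cytosol, Zbp1 binds left-handed nucleic acid, and Dhx58 (LGP2) and Ifih1 (MDA5) bind double-stranded RNA. Toll-like receptors do this at membranes: Tlr2 and Tlr4 at the cell surface for bacterial lipids, Tlr3 and Tlr7 in endosomes for RNA. Cd14 hands ligands to Tlr2 and Tlr4, Ly86 (MD-1) is the partner of the Toll-like protein Cd180, and Myd88 is the adaptor that most of these receptors share. In nervous tissue microglia are the main cells known to carry the surface receptors and Cd14, while many cell types make more of the cytosolic sensors on exposure to interferon.

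All 9 measured genes had a higher mean in CNT than in control cultures, as 58.5% of all genes did, by 1.14-fold (Myd88) to 4.93-fold (Zbp1), and none passed limma's adjusted p of 0.05 (adjusted p = 0.999 for each of the 9). No gene of the 14217 passed (0%). At an unadjusted p under 0.05 in limma 6 of the 9 were higher and 0 lower, where 2.41% of all genes were higher and 0.71% lower (342 and 101 genes, or 237 and 184 with each array centred on its median). These 6 were Zbp1, Dhx58, Tlr4, Tlr7, Cd14 and Ly86. For the same 6 the CNT arrays were all above the control arrays, as they were for 5.94% of all genes, and for 0 of the 9 they were all below, against 2.05% of all genes. With median centring Tlr7 overlapped, and the share was 5 of 9 against 3.47% of all genes. With 3 arrays against 3 the exact two-sided permutation test cannot go below 0.1, which each of these 6 genes reached. The median log2 fold change was 0.64 over the 9 genes and 0.03 over all genes, and 6 of the 9 were more than 1.5-fold higher, against 2.64% of all genes. These were not the same 6 as above, since Ifih1 (1.56-fold) was among them and Tlr4 (1.499-fold) was not. The study's own gene list from these arrays holds Zbp1 and Dhx58, so their direction is not independent evidence. The other genes were also chosen with earlier results of these data known. The counts beside the shares of all genes therefore describe the list and are no test of it.

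Promoter sequences are shown for the genes that hold the letters of a motif through which interferon or NF-kappaB act on immune genes. Windows of 300 bases around the start, from RefSeq (build GRCr8), were searched for 7 of the 10 genes. Zbp1, Dhx58 and Ly86, the genes with the largest differences, had no window in the table used and were not searched. The interferon-stimulated response element was searched as GAAA, any 2 bases and GAAA again, on both strands, and was found in Ifih1 and Myd88, 2 of 7 windows, against 3.92% of all 33469 windows. The NF-kappaB motif was found in Tlr2, 1 of 7 windows, against 7.51% of all. The core motif of PU.1, a factor of macrophages, searched as GAGGAAGT, was in 0 of 7 windows and in 2.42% of all. The 3 windows with a match follow in the 5′ to 3′ direction of the gene, with the matches in capitals. They lie at chr3:67683919-67684218 (minus strand) for Ifih1, chr8:127956181-127956480 (minus strand) for Myd88 and chr2:171504508-171504807 (minus strand) for Tlr2.
Ifih1: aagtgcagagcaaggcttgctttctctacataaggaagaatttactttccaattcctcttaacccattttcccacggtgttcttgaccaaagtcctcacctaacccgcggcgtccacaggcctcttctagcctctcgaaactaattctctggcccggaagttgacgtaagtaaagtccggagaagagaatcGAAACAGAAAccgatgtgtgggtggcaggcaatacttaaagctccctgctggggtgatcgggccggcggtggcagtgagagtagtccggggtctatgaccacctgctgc
Myd88: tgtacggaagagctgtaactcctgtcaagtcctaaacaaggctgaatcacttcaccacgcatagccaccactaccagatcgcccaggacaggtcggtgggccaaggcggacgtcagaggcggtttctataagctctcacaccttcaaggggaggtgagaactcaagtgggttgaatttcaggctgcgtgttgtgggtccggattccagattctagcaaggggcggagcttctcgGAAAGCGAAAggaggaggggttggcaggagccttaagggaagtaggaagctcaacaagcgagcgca
Tlr2: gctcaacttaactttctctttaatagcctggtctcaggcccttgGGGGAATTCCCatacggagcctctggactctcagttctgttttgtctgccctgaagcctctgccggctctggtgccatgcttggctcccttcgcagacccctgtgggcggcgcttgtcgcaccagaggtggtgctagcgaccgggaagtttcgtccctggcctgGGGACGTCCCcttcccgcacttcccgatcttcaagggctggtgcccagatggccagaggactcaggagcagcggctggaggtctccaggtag
The element spans bases -59 to -50 from the start in Ifih1 and -16 to -7 in Myd88. In Tlr2 the NF-kappaB matches start at -206 and -205, which overlap, and at -42. A match is a description of letters, and no binding was measured.

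The cytosolic sensors Zbp1 and Dhx58 had the largest differences of the 9 genes. Zbp1 had a log2 expression of 9.03, 10.11 and 9.91 in CNT cultures 1, 2 and 3, against 6.86, 6.78 and 8.50 in control cultures 1, 2 and 3. The groups did not overlap, and control 3 stood apart from the other control cultures, 0.53 below the lowest CNT culture. Means were 9.68 ± 0.58 in CNT and 7.38 ± 0.97 in control cultures (SD, n = 3 each), a log2 fold change of 2.30 (standard error 0.53, 95% interval 1.01 to 3.60), the 13th highest of all genes. The log2 fold change of Zbp1 was 2.86 without control 3. The values in control 1 and control 2 may lie near background, and detection calls were not used.

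Dhx58, a helicase that binds RNA without a signalling domain of its own, had a log2 expression of 9.70, 10.12 and 10.39 in CNT cultures, against 8.22, 7.63 and 9.47 in control cultures. Again no control culture reached the lowest CNT culture, and control 3 was the closest. Means were 10.07 ± 0.35 in CNT and 8.44 ± 0.94 in control cultures (SD, n = 3 each), a log2 fold change of 1.63 (standard error 0.48, 95% interval 0.48 to 2.79). The value was 1.23 without control 2 and 2.15 without control 3. Dhx58 is the only one of the 9 genes with several probe sets, and all 3 were higher in CNT cultures without overlap. The probe set above has the suffix x, which marks probes that can also match other transcripts. The probe set with the suffix a, which the manufacturer gives to probes of a single gene, had 9.62, 10.35 and 10.57 in CNT cultures, against 8.25, 7.10 and 9.57 in control cultures, a log2 fold change of 1.87 with a standard error of 0.63. The third, again with the suffix x, had 9.29, 9.23 and 9.40 in CNT cultures, against 7.55, 7.39 and 8.95 in control cultures, a log2 fold change of 1.34 with a standard error of 0.42. These 3 probe sets read the same RNA on the same arrays and are not replicates.

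Ifih1, the sensor of long double-stranded RNA, with the interferon motif in its window, differed less. Its log2 expression was 7.64, 7.68 and 8.18 in CNT cultures and 6.66, 7.12 and 7.79 in control cultures. Control 3 lay above CNT cultures 1 and 2, so that the groups overlapped. The log2 fold change was 0.64 (standard error 0.31, 95% interval -0.11 to 1.40), and 0.38 without control 1. The probe set of Ifih1 is among the dimmest 30% of the genes on the array.

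**Figure D1:**
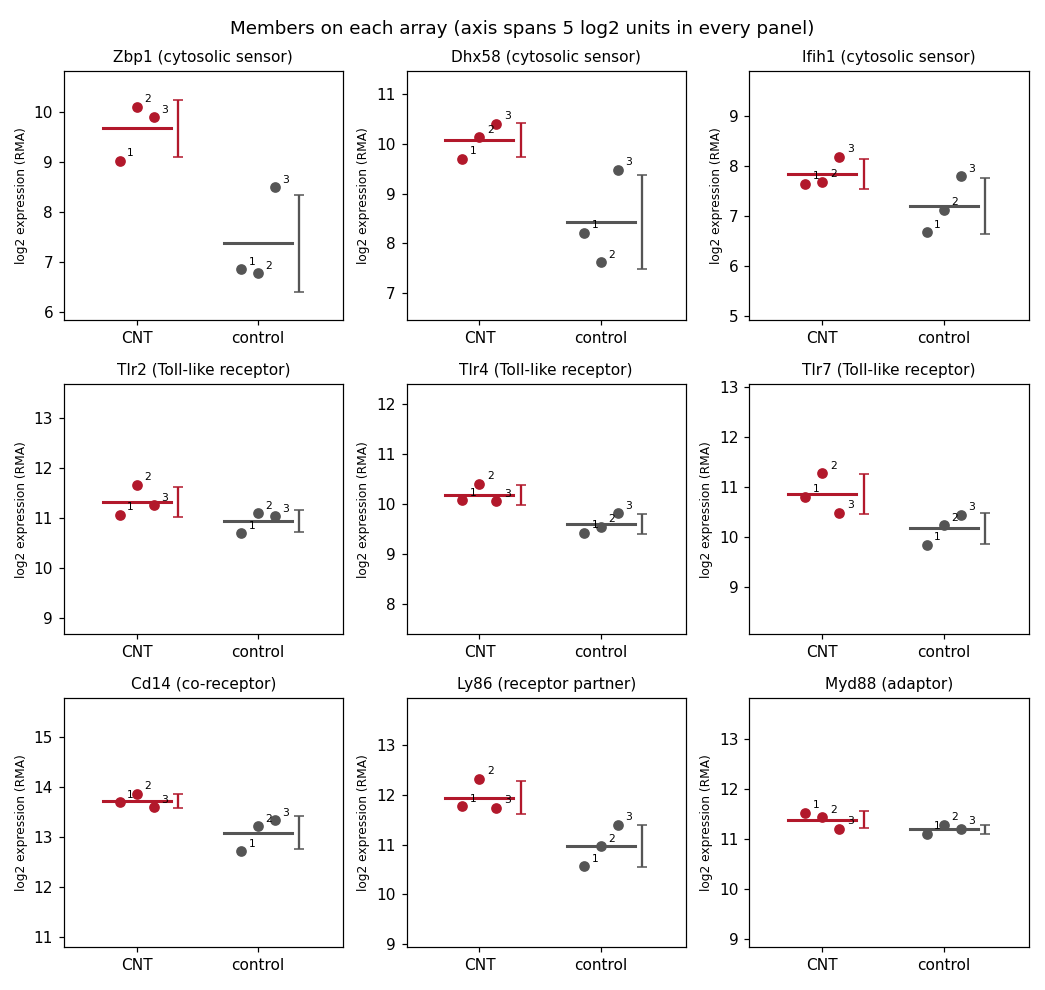
Log2 expression (RMA) of the 9 measured genes on each array, 1 panel a gene, CNT cultures in red on the left and control cultures in grey on the right, with the replicate number beside each point. Horizontal lines mark means and vertical bars give the SD (n = 3). Each vertical axis spans the same number of log2 units around its own midpoint, so heights do not compare between panels. Control 3 tops the control cultures for 7 of the 9 genes.

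The Toll-like receptors had smaller differences than Zbp1 and Dhx58, with less spread between control cultures. Tlr4, the receptor for lipopolysaccharide, had a log2 expression of 10.08, 10.40 and 10.05 in CNT cultures, against 9.42, 9.54 and 9.81 in control cultures. The groups did not overlap, and the gap between the lowest CNT and the highest control culture was 0.23. The log2 fold change was 0.58 (standard error 0.16, 95% interval 0.21 to 0.96).

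Tlr7, the endosomal receptor for single-stranded RNA, had 10.81, 11.28 and 10.49 in CNT cultures, against 9.84, 10.24 and 10.45 in control cultures. CNT 3 and control 3 differed by 0.04, which is all that separated the groups. The log2 fold change was 0.68 (standard error 0.25, 95% interval 0.07 to 1.28). Tlr2, which recognises bacterial lipoproteins and has the NF-kappaB motif in its window, had 11.06, 11.66 and 11.26 in CNT cultures and 10.70, 11.10 and 11.04 in control cultures. CNT 1 lay below control 2, and the groups overlapped. Its log2 fold change was 0.38 (standard error 0.19, 95% interval -0.08 to 0.85), and 0.22 without CNT 2.

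Of the receptor partners, Cd14 had a log2 expression of 13.70, 13.87 and 13.60 in CNT cultures, against 12.71, 13.22 and 13.33 in control cultures. No control culture reached the CNT cultures, and the groups were 0.27 apart. Means were 13.72 ± 0.14 in CNT and 13.09 ± 0.33 in control cultures (SD, n = 3 each), a log2 fold change of 0.63 (standard error 0.19, 95% interval 0.18 to 1.09).

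Ly86 had 11.77, 12.32 and 11.73 in CNT cultures, against 10.56, 10.96 and 11.39 in control cultures. The groups were 0.34 apart, and CNT 2 was the highest. Means were 11.94 ± 0.33 in CNT and 10.97 ± 0.41 in control cultures (SD, n = 3 each), a log2 fold change of 0.97 (standard error 0.26, 95% interval 0.34 to 1.60), the third largest of the 9.

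Myd88, with the interferon motif in its window, had the smallest difference. Its log2 expression was 11.53, 11.44 and 11.21 in CNT cultures and 11.11, 11.29 and 11.21 in control cultures, and CNT 3 was within the control range. The log2 fold change was 0.19 (standard error 0.12, 95% interval -0.10 to 0.48), and 0.12 without CNT 1. In the order of log2 fold change, from Zbp1 through Dhx58, Ly86, Tlr7, Ifih1, Cd14, Tlr4 and Tlr2 to Myd88, the 95% intervals of each neighbouring pair overlapped. The interval of Zbp1 lay wholly above those of Tlr4, Tlr2 and Myd88.

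**Figure D2:**
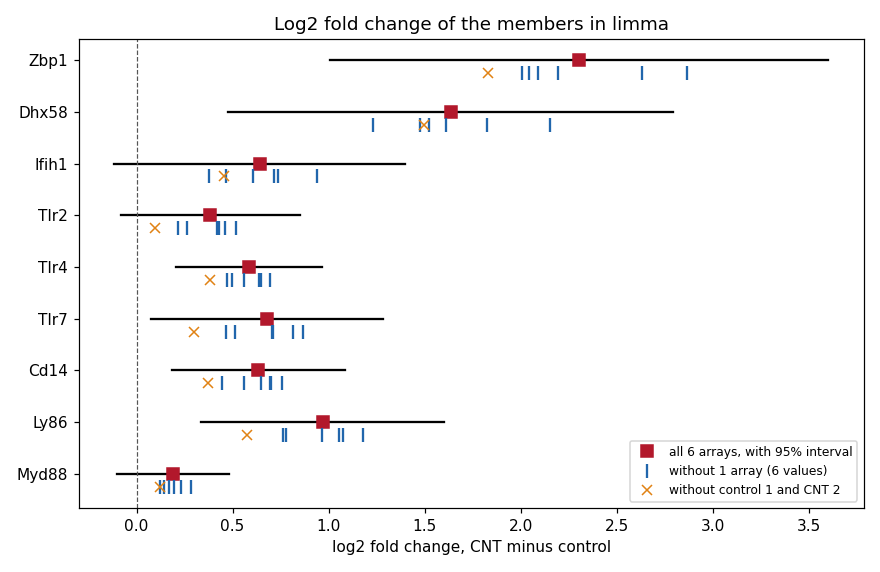
Log2 fold change (CNT minus control) of the 9 measured genes from limma, as red squares with 95% intervals, with the values without each array in turn (blue ticks) and without control 1 and CNT 2 (orange crosses). All values are above 0, from 0.09 for Tlr2 without control 1 and CNT 2 to 2.86 for Zbp1 without control 3.

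The same arrays were high or low for most of the 9 genes. Control 3 was the highest control culture for 7 genes, Tlr2 and Myd88 being the exceptions, where it was the highest for 26.1% of all genes. CNT 2 was the highest CNT culture for 6 of the 9, against 34.6% of all genes. Profiles over the 6 arrays were set against each other as the root mean square difference after each gene was centred on its mean. Tlr4 and Cd14 were the closest pair of the 9 (0.12 log2), followed by Tlr7 and Cd14 (0.16) and Tlr4 and Tlr7 (0.16). Zbp1 and Dhx58 differed from each other by 0.42 and from every receptor by more. The values were not scaled, so this distance includes the size of the difference between CNT and control cultures. Genes with unlike log2 fold changes are therefore far apart by construction, and the distances are not separate evidence of groups.

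Among all 14217 genes, those with the profile closest to Ly86 were Fcgr1a, an activating receptor for antibodies on phagocytes (0.08 log2), Plek (0.09) and Rasa4 (0.11). Those closest to Cd14 were Fgr, a kinase of myeloid cells (0.07), Daglb (0.07) and Calhm6 (0.08). Closest to Tlr7 were Tor4a (0.07), Ptgs1, a prostaglandin synthase (0.10), and Irf5, a transcription factor downstream of Tlr7 (0.10). The genes closest to Zbp1 were RT1-T24-3 (0.21), RT1-S3, of the MHC class Ib (0.26), and Cmpk2 (0.34). Closest to Dhx58 were Bst2, which tethers virus particles (0.21), Igtp, an interferon-induced GTPase (0.22), and RT1-S3 (0.24). For Ifih1 they were Cd44 (0.08), LOC100909405 (0.08) and Prdx5 (0.10). These genes were picked for their likeness over 6 arrays, which includes a similar difference between the groups, and no test was made of it.

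Among the other Toll-like receptors and their chaperones, 7 of 9 measured genes had a higher mean in CNT cultures, against 58.5% of all genes. None passed limma's adjusted p or an unadjusted p under 0.05. The median log2 fold change of this list was 0.45. Cd180, to which Ly86 binds, had 9.54, 10.63 and 10.09 in CNT cultures and 8.88, 8.82 and 9.91 in control cultures, and only control 3 lay inside the CNT range. Its log2 fold change was 0.88 (95% interval -0.07 to 1.83). Tlr1, which pairs with Tlr2, had a log2 fold change of 0.90 (95% interval -0.11 to 1.91). Lbp, which carries lipopolysaccharide to Cd14, was on the other side with -0.98 (95% interval -2.01 to 0.04). The brightest genes of this group were Unc93b1, which brings endosomal receptors to their place (0.37, 95% interval -0.19 to 0.92), and Hsp90b1, a chaperone of Toll-like receptors (-0.17, 95% interval -0.46 to 0.11). Ly96, the partner of Tlr4, was named after its values were seen and had 12.23, 12.11 and 12.47 in CNT cultures and 11.60, 11.57 and 12.29 in control cultures, with control 3 again inside the CNT range.

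Of 22 other adaptors and kinases of Toll-like receptor signalling, 15 had a positive log2 fold change, against 58.5% of all genes. Of the 22, 1 had an unadjusted p under 0.05 in limma and no overlap, against 2.41% and 5.94% of all genes. It was Ticam1, the adaptor TRIF of Tlr3 and Tlr4. Ticam1 had 8.41, 8.44 and 8.57 in CNT cultures, against 8.10, 8.03 and 8.28 in control cultures, a log2 fold change of 0.34 (95% interval 0.07 to 0.60). The median of the 22 was 0.03, as for all genes. The kinase Irak2 (0.67, 95% interval -0.06 to 1.39) and the NF-kappaB subunit Nfkb2 (0.42, 95% interval -0.13 to 0.97) came next by p. The brightest genes, Tab2 (0.01, 95% interval -0.22 to 0.24) and Chuk (-0.06, 95% interval -0.33 to 0.21), both of the kinase complexes, had intervals on both sides of 0.

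Of 17 other cytosolic sensing genes, 14 had a higher mean in CNT cultures, against 58.5% of all genes. Of the 17, 7 were higher at an unadjusted p under 0.05 in limma and 4 did not overlap, against 2.41% and 5.94% of all genes. The median of the 17 log2 fold changes was 0.46. Trex1, which degrades cytosolic DNA, had 10.94, 11.39 and 11.11 in CNT cultures, against 10.10, 9.89 and 10.50 in control cultures, a log2 fold change of 0.98 (95% interval 0.51 to 1.46). Samhd1, which lowers the nucleotide pool, had 0.80 (95% interval 0.27 to 1.33), and Nlrc5, an activator of MHC class I genes, 1.20 (95% interval 0.26 to 2.15). The brightest of the group were the ubiquitin ligase Trim25 (0.52, 95% interval -0.16 to 1.21) and the helicase Ddx3x (0.01, 95% interval -0.21 to 0.22). RIG-I, the third RNA helicase of the family of Dhx58 and Ifih1, was listed as Rigi, a symbol that matched no probe set. The counts above therefore leave it out. Rig1, taken from its symbol as RIG-I, was named after its values were seen. It had 11.25, 11.62 and 11.87 in CNT cultures, against 10.51, 10.09 and 11.08 in control cultures, without overlap, and a log2 fold change of 1.02 (95% interval 0.32 to 1.71).

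Of 23 genes known as outputs of Toll-like receptor signalling, 20 had a higher mean in CNT cultures, against 58.5% of all genes. Against 2.41% of all genes, 2 of the 23 were higher at an unadjusted p under 0.05 in limma. These were the chemokine Ccl5 (1.27, 95% interval 0.44 to 2.10) and the costimulatory gene Cd86 (0.93, 95% interval 0.06 to 1.80), and the median of the 23 log2 fold changes was 0.35. Cxcl10 came next, with an interval that held 0 (1.82, 95% interval -0.18 to 3.81). The paper names Ccl5 and Cxcl10 as increased on these same arrays, so their direction here is not independent evidence. The brightest genes of the group were Ccl2, a chemokine for monocytes (0.49, 95% interval -0.53 to 1.51), and the adhesion gene Icam1 (-0.16, 95% interval -0.99 to 0.67). The mean level of the 23 genes was 8.97, 9.11 and 9.98 in CNT cultures and 8.42, 8.69 and 9.53 in control cultures. Culture 3 was the highest of both groups, and the groups overlapped. None of the genes in these 4 lists passed an adjusted p of 0.05 in limma.

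**Figure D3:**
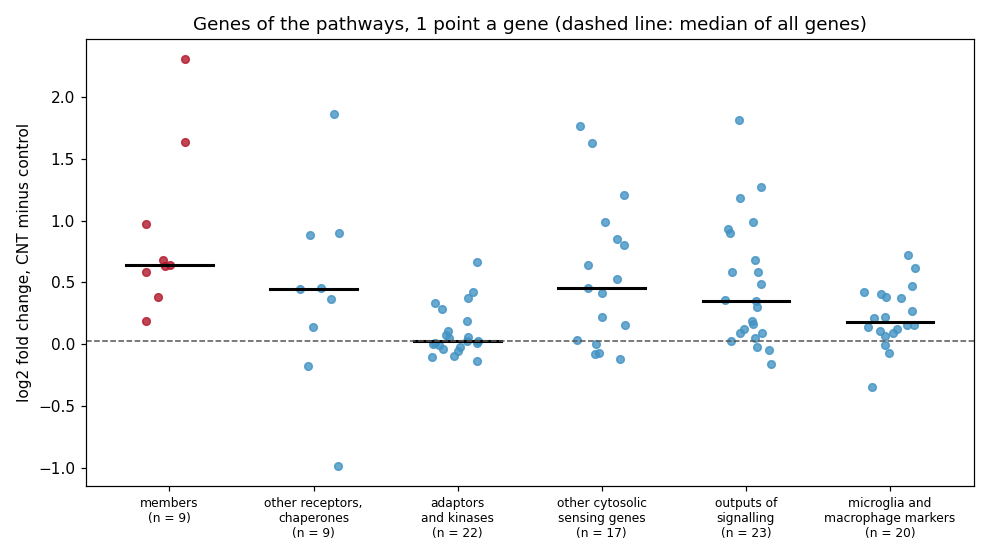
Log2 fold change (CNT minus control) of each measured gene of the 9 (red) and of 5 other lists (blue), with the median of each list as a black line and the median of all genes, 0.03, dashed. The medians are 0.64 for the 9 genes, 0.45 for the other receptors, 0.03 for adaptors and kinases, 0.46 for other cytosolic sensing genes, 0.35 for outputs and 0.18 for the microglia and macrophage markers.

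Markers of microglia and macrophages, the cells known to carry most of these receptors, were also higher on average in CNT cultures, by less than most of the 9 genes and with overlapping groups. Of 20 markers measured 17 had a positive log2 fold change (58.5% of all genes) and 1 (Tyrobp) did not overlap (5.94% of all genes). None of the 20 markers had an unadjusted p under 0.05 in limma, and their median log2 fold change was 0.18. Their mean level was 12.27, 12.33 and 11.86 in CNT cultures and 11.56, 12.14 and 12.07 in control cultures, so that CNT 3 lay below control 2 and control 3. Aif1, the gene of Iba1, had a log2 fold change of 0.37 (95% interval -0.27 to 1.01). Neutrophil and lymphocyte lists overlapped between the groups, with a mean level of 5.94 to 6.36 in CNT and 5.71 to 6.26 in control cultures over 5 neutrophil markers, and of 6.47 to 6.56 in CNT and 6.31 to 6.49 in control cultures over 8 lymphocyte markers. The 4 dendritic cell markers were at 7.92 to 7.97 in CNT and 7.35 to 7.87 in control cultures and did not overlap, with Itgax, which macrophages also carry, at a log2 fold change of 1.25 and the other 3 between 0.00 and 0.09. All 10 fibroblast and meningeal markers had a lower mean in CNT cultures, with a median log2 fold change of -0.48 and a mean level of 11.04 to 12.62 in CNT and 12.54 to 12.86 in control cultures. Neuron markers were at 9.12 to 9.26 in CNT and 9.19 to 9.40 in control cultures (10 genes), and astrocyte markers at 11.37 to 11.57 in CNT and 11.36 to 11.70 in control cultures (9 genes). Endothelial markers were at 7.28 to 7.39 in CNT and 6.89 to 7.33 in control cultures (8 genes, all with a higher mean in CNT cultures), and oligodendrocyte markers at 10.54 to 11.97 in CNT and 10.74 to 11.51 in control cultures (9 genes). The part of the dendritic, endothelial, oligodendrocyte and fibroblast lists in the results for the 9 genes was not tested.

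Each gene was also read relative to the mean of the 20 markers on the same array. Relative to it, Zbp1 was 2.08 log2 higher in CNT than in control cultures, Dhx58 1.41, Ly86 0.74, Tlr7 0.45 and Cd14 0.41. For each of these 5 every relative value was higher in CNT than in control cultures (exact two-sided permutation p = 0.1, the smallest possible, for each). This held for 0.696% of all genes, and 2.38% were wholly lower, against 5.94% and 2.05% before the subtraction. For Dhx58 the groups barely separated, with a relative value of -2.565 in CNT 1 and -2.593 in control 3. The marker mean was 0.23 log2 higher in CNT cultures, so subtracting it lowered the difference of every gene by that amount. The share of 0.696% is low partly for this reason. The differences of Tlr4 (0.36, exact permutation p = 0.2), Ifih1 (0.41, exact permutation p = 0.4) and Tlr2 (0.16, exact permutation p = 0.4) came with overlapping groups. Myd88 was 0.03 lower (-0.03, exact permutation p = 0.8). With the marker mean as a covariate in limma, the log2 fold change was 2.20 for Zbp1 and 1.69 for Dhx58, 0.75 for Ly86, 0.57 for Ifih1, 0.48 for Tlr4, 0.46 for Cd14, 0.44 for Tlr7, 0.26 for Tlr2 and 0.10 for Myd88. Of the 9 genes 5 then had an unadjusted p under 0.05, against 2.05% of all genes, and Tlr7 (unadjusted p = 0.051 in limma) was not among them. The 9 relative values share the same 6 marker means and are not independent of each other.

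**Figure D4:**
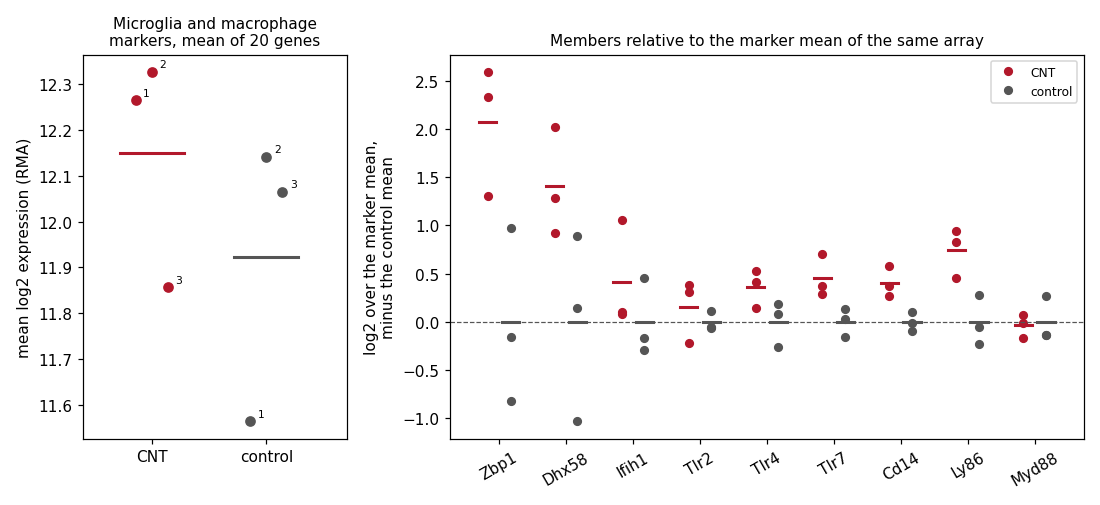
Left, mean log2 expression of 20 microglia and macrophage markers on each array. Right, log2 expression of each of the 9 genes minus that marker mean on the same array, shown relative to the control mean. CNT cultures are red and control cultures grey, lines are means of 3 cultures, and the groups do not overlap for Zbp1, Dhx58, Tlr7, Cd14 and Ly86.

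RNA quality was read from beta-actin, whose probe sets lie at both ends of the transcript. The signal at the 3′ end was above that at the 5′ end by 0.92, 2.20 and 1.72 log2 in CNT cultures and 2.20, 0.62 and 0.66 log2 in control cultures. Without control 1 and CNT 2, where this gap was largest, the log2 fold change was 1.83 for Zbp1, 0.57 for Ly86, 0.37 for Cd14, 0.38 for Tlr4, 0.30 for Tlr7 and 0.09 for Tlr2, and the median of the 9 genes was 0.38. On these 4 arrays 2 of the 9 genes, Cd14 and Ly86, had an unadjusted p under 0.05 in limma, against 0.513% of all genes, and Zbp1, Dhx58, Tlr4 and Tlr7 no longer did. Of the 9 genes, 6 did not overlap, against 15.3% of all genes. With the beta-actin gap as a covariate in limma, the median was 0.73. CNT 2 was the highest CNT culture for 6 of the 9 genes, and control 1 was the highest control culture for 0. Leaving out these arrays therefore cannot tell RNA quality apart from the level of the genes on them.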

How the data were processed

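Each of the 3 CNT and 3 control cultures gave 1 array. Per the labels, the deposited log2 values are RMA expression for the manufacturer's probe sets, made by the authors with a version not given in the sources used here. For its own analysis the study used probe sets regrouped by EntrezGene, according to the methods. No further normalisation was applied. Of 31099 probe sets, 57 controls, 436 paired with several genes and 9780 paired with none were left out, which left 20826 for 14217 genes. Gene symbols came from the array's annotation and were looked up by gene ID in RefSeq.

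The main comparison was unpaired, by limma 3.58.1 (lmFit, eBayes) under R 4.3.3. Its p-values were adjusted by Benjamini-Hochberg across the 14217 genes, called under 0.05, and its intervals are at 95%. The fit was tested on simulated data. The methods' rank product permutes genes and was not run. The genes and lists were chosen with earlier results of these data known. Besides the 10 genes, the text names from each pathway list the 3 genes with the lowest unadjusted p and the 2 with the highest mean, and for each gene that spanned more than 1 log2 the 3 genes with the closest profile. The number of arrays limits the precision. Each limma p-value sets a difference against the spread between cultures of a group, drawn toward a value estimated from all genes. RNA was extracted with TRIzol and RNeasy according to the labels and with a Nanoprep kit according to the methods. Alternatives were another variance prior, weighted arrays, the replicate number as a block, averaged or separate probe sets, a filter on dim genes, quantile, median and cyclic loess normalisation, leaving out each array, leaving out control 1 with CNT 2, and the microglia marker mean or the beta-actin gap as a covariate.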

Additional observations from a re-analysis of the deposited data

How the results depend on the processing

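Over 18 alternatives, none of the 9 genes changed direction and none passed limma's adjusted p of 0.05. The smallest adjusted p was 0.147, for Zbp1 and Dhx58 without control 3. Ifih1 has no value without the dimmest 30% of genes. The number of genes past the threshold among all genes was 0 with all arrays and 0 to 2 without 1 array, with Mx1 and Prl6a1, named after their values were seen, called without control 3. The median log2 fold change of the 9 genes was 0.38 without control 1 and CNT 2, and 0.50 to 0.82 without 1 array. The count of the 9 genes without overlap was 6 or 7 without 1 array, where 8.5% to 17.0% of all genes did not overlap against 5.94% with all arrays, and 5 with median centring or cyclic loess (3.47% and 3.57%), where Tlr7 overlapped. This count has no value with the block or a covariate. The count of the 9 genes higher at an unadjusted p under 0.05 in limma was 5 to 7 without 1 array, against 1.08% to 4.71% of all genes. The count of 7 and the share of 4.71% were both without control 3. Without control 1 and CNT 2 the count was 2, against 0.513% of all genes. Over the alternatives, 73 to 670 genes were higher and 43 to 412 lower at an unadjusted p under 0.05 in limma.

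Deviations from the group means correlated across genes with r = -0.13, 0.36 and 0.51 in the pairs numbered 1, 2 and 3, and not every sample correlated best with its own number. The highest r of any pairing was 0.68, between CNT 1 and control 2. The paper's methods give 3 culture series for each condition. Neither they nor the labels say that a number marks a series shared by CNT and control cultures, so the numbers were not taken to pair the samples. With the replicate block, 0 genes passed, 498 were higher and 179 lower at an unadjusted p under 0.05 in limma, against 342 and 101 without it. The median of the 9 genes with the block was 0.64, and 8 of them had an unadjusted p under 0.05, with Ifih1 and Tlr2 added to the 6, against 3.50% of all genes. A dim probe set, such as that of Ifih1, may lie near background, and detection calls were not used here. This also concerns Zbp1 in control 1 (6.86) and control 2 (6.78), inside the range of Ifih1 in control cultures (6.66 to 7.79).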
